A study of Mus musculus with 6 samples.

Results

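The renin-angiotensin and kinin system was examined in lung RNA through 8 genes of the 54532 in the deposited counts. They were *Agt*, *Ace*, *Mme*, *Agtr1a*, *Agtr1b*, *Agtr2*, *Bdkrb1* and *Bdkrb2*, found by their gene symbols. These genes were chosen by the differences they had shown between the genotypes in these same libraries, so their fold changes and counts are a description and nothing is read from them. Lungs came from 3 GR+/+ and 3 GRdim/dim mice, littermates of a mixed 129/SvEv x C57BL/6 background aged 10 to 16 weeks, with one library of poly(A)-captured RNA from each mouse. GRdim/dim mice carry a point mutation in *Nr3c1*, the gene of the glucocorticoid receptor (GR), inherited in every cell, and the mutation impairs the pairing of receptor molecules on DNA. All 6 mice had been anaesthetized and ventilated, bled to a mean arterial pressure of 35 mmHg, held in this hemorrhagic shock (HS) for 1 h, re-transfused and resuscitated for 4 h with fluids and norepinephrine. No lung without shock was among the libraries, so the values compare genotypes after shock and give no response to shock.

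Angiotensinogen, the product of *Agt*, is cut by renin to angiotensin I, and angiotensin-converting enzyme (ACE) on the surface of endothelial cells turns angiotensin I into angiotensin II. ACE also breaks down bradykinin, as does neprilysin, the product of *Mme*, so the same enzymes stand between a vasoconstrictor and a vasodilator peptide. The lung is known for its dense capillary bed carrying ACE, where much of the circulating angiotensin I is converted. Angiotensin II acts through type 1 receptors, encoded in the mouse by *Agtr1a* and *Agtr1b*, and through the type 2 receptor encoded by *Agtr2*. Kinins act through the constitutive B2 receptor (*Bdkrb2*) and the B1 receptor (*Bdkrb1*), which is known as inducible by injury and inflammation.

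*Ace* is known for an upstream start used in somatic cells and an internal start used in male germ cells, and the deposited counts per gene do not separate transcripts of the 2 starts. The 250 bases before both *Ace* starts are shown for that reason, with those of *Bdkrb2*, whose libraries did not overlap between genotypes, and of *Agt*, the substrate gene of the system. All are from RefSeq on GRCm38.p6, 5′ to 3′ on the strand of the gene, and capitals mark a TATA box, the letters TATAAA on either strand. Entries were found for 6 of the 8 genes. The upstream *Ace* start, in exon 1 of the longest coding transcript, follows chr11:105967698-105967947 on the plus strand.
Ace, upstream start: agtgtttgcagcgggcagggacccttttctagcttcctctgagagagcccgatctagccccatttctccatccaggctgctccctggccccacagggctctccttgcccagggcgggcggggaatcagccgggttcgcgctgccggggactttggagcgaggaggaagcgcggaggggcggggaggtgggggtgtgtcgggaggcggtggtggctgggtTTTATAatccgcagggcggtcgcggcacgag
The internal *Ace* start, in intron 12 of that transcript, follows chr11:105974939-105975188 on the plus strand.
Ace, internal start: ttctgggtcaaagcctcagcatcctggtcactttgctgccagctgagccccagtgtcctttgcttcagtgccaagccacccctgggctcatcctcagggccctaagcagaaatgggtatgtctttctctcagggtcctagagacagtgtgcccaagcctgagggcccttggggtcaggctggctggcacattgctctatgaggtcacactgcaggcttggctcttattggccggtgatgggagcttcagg
The *Bdkrb2* start follows chr12:105562922-105563171 on the plus strand and lies 54 bases before the start of the gene in the GENCODE annotation.
Bdkrb2: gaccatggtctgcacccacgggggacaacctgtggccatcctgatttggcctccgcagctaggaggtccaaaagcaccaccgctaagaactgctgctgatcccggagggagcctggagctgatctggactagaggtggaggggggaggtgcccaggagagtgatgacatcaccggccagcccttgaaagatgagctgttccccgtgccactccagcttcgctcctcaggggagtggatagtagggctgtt
The *Agt* start, in exon 1, follows chr8:124569707-124569956 on the minus strand.
Agt: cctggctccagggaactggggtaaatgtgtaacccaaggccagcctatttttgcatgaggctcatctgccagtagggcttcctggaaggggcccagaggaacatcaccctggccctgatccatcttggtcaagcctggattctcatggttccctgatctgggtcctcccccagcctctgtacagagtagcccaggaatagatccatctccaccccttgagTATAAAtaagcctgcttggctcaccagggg

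The TATA letters began 30 bases before the start in *Agt* and 31 bases before it, on the opposite strand, at the upstream start of *Ace*. *Agtr1b* also held them, 31 bases before its start. They occurred in 13.6% of 32851 RefSeq promoter windows of the same length, 250 bases before a start and 50 after it. The windows at the internal *Ace* start and at *Bdkrb2* did not hold these letters. The GR half-site AGAACA, searched on both strands, was in 19.0% of all windows and in no window of the 6 genes found. The palindromic GR element, which is built of 2 half-sites and so overlaps the half-site search, was in 0.00913% of windows and in none of theirs. The AP-1 letters TGANTCA were in 7.81% of windows and, of these genes, only in *Mme*. They lay 9 bases after its second RefSeq start and 215 bases before the third, which are the same bases, as these windows overlap. The cAMP-response letters TGACGTCA were in 1.79% of windows and in no window of these genes. A match or its absence describes letters in these windows and says nothing about binding.

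The counts of a library summed to 16361747 to 32082940 for GR+/+ and to 15687734 to 24444604 for GRdim/dim mice. Levels are given as counts per 1000000 (CPM) on totals scaled by the TMM method. Of the 16568 genes with enough reads to be tested, edgeR with Benjamini-Hochberg adjustment called 28 between the genotypes, or 0.169%, at an adjusted p under 0.05 and a log2 fold change beyond 0.5. *Nr3c1* itself measured 148 CPM ± 12.2 (SD, n = 3) in GR+/+ and 143 ± 20.2 in GRdim/dim lungs, and counts per gene cannot show a point mutation. The GR target *Fkbp5* measured 110 CPM ± 37.6 and 46.1 ± 7.72, and *Tsc22d3* 248 ± 63.2 and 125 ± 22.8, in GR+/+ and GRdim/dim lungs, with no overlap between the genotypes for either gene. Their adjusted p-values were 0.103 and 0.175 with edgeR and 5.04e-04 and 0.00705 with DESeq2. The lung label was checked with marker genes, of which those of alveolar type 2 cells summed to 15267 to 23707 CPM. GR+/+ replicate 3 stood apart, with the lowest summed markers of endothelial cells, fibroblasts, pericytes and smooth muscle. It also had 56.5 CPM of summed liver markers against 1.13 to 4.56 CPM in the other libraries. Summed kidney markers measured 10.3 CPM in GR+/+ replicate 2 and 0 to 0.270 CPM in the other libraries. *Xist*, which marks cells with an inactive X chromosome, measured 309 to 463 CPM in GR+/+ replicates 2 and 3 and GRdim/dim replicate 2, and 0.258 to 0.837 CPM in the other 3 libraries, which held the Y-linked RNA, so the sexes were not balanced between the genotypes.

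The 8 genes spanned a wide range of levels in the lung, compared here as CPM per kilobase of the gene length in the deposited table. *Ace* stood far above the others at a mean of 216 CPM per kilobase over 6 libraries, with single libraries from 121 to 352. *Mme*, *Bdkrb2*, *Bdkrb1* and *Agtr1a* followed at 9.95 ± 2.38 (SD, n = 6), 8.76 ± 3.17, 7.88 ± 4.65 and 5.41 ± 2.34 CPM per kilobase. Each of these 4 genes differed from its neighbour in this order by less than the spread over the libraries, while *Mme* was above *Agtr1a* in each of the 6. *Agt* was lower at 0.928 ± 0.425 CPM per kilobase, *Agtr1b* lower again at 0.135 ± 0.0776, and *Agtr2* at 0.00159. The gaps on either side of *Agt* exceeded the spread, since its lowest library, at 0.456 CPM per kilobase, lay above the highest of *Agtr1b*, at 0.232, and its highest, at 1.43, below the lowest of *Agtr1a*, at 2.94. With the length of the longest transcript in place of the table's gene length, *Mme* came to 14.3 and *Ace* to 232 CPM per kilobase.

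**Figure D1:**
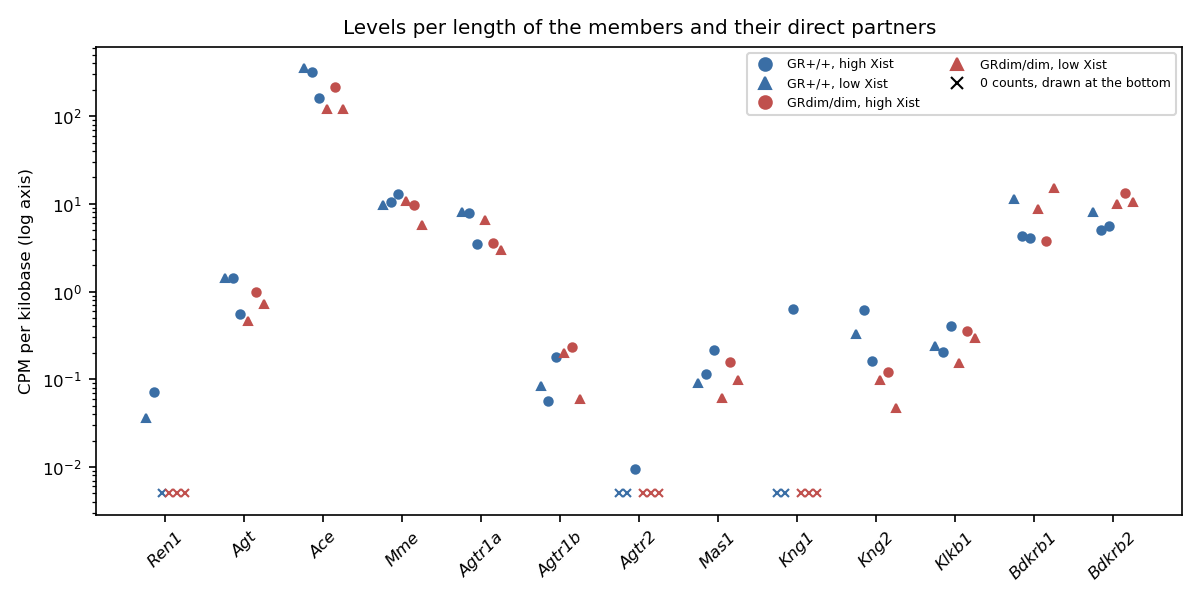
Level per length (CPM per kilobase, log axis) of the members and their direct partners in each of 6 lung libraries, coloured by genotype, with circles for libraries with much *Xist*, triangles for those with little and crosses for 0 counts. *Ace*, at 121 to 352, lies above all libraries of the other genes shown, and *Ren1*, *Agtr2* and *Kng1* have libraries without a count.

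*Agt* (ENSMUSG00000031980, chr8:124556534-124569706, minus strand, 5 exons) is known to be expressed mainly in the liver and gave few reads in the lung. Its level was 2.69, 2.70 and 1.05 CPM in GR+/+ replicates 1, 2 and 3 and 0.863, 1.87 and 1.36 CPM in GRdim/dim replicates 1, 2 and 3. GR+/+ replicates 1 and 2 were the highest, and GR+/+ replicate 3 lay within the range of the GRdim/dim libraries, so the groups overlapped. Means were 2.15 ± 0.95 and 1.36 ± 0.503 CPM (SD, n = 3 per genotype), a log2 fold change of -0.62 ± 0.49 (SE) and an adjusted p of 0.761 in the edgeR fit. The level rests on 205 counts in all. GR+/+ replicate 3, with the liver markers named above, had the lowest *Agt* of its group.

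*Ace* (ENSMUSG00000020681, chr11:105967945-105989964, plus strand, 25 exons in its longest coding transcript) was the most abundant gene of the system. It measured 1860, 1697 and 861 CPM in GR+/+ lungs and 644, 1135 and 642 CPM in GRdim/dim lungs, in the order of the replicate numbers. GR+/+ replicates 1 and 2 lay above all GRdim/dim libraries and GR+/+ replicate 3 lay below GRdim/dim replicate 2, so the groups overlapped. Its mean was 1473 ± 536 CPM in GR+/+ and 807 ± 284 CPM in GRdim/dim lungs (SD, n = 3 each), or 1.82-fold lower in GRdim/dim lungs, with a log2 fold change of -0.87 ± 0.33 (SE). The adjusted p was 0.439 with edgeR and 0.131 with DESeq2, so *Ace* passed neither test. In the libraries with most *Ace*, the gene took 0.187% and 0.173% of all counts, against 0.0634% in the lowest. The noncoding gene *Gm11651* lies antisense to *Ace* over 295 exon bases, and its own 1 to 10 counts per library are few beside the 9946 to 31118 of *Ace*.

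Because ACE is a protein of endothelial cells, *Ace* was also set beside 8 endothelial marker genes, a comparison chosen after seeing the data. The summed markers measured 4055, 4099 and 2701 CPM in GR+/+ lungs and 3207, 3661 and 3482 CPM in GRdim/dim lungs. Of the 8 markers, 7 were lower and 1 higher in GRdim/dim lungs by their edgeR log2 fold change, none was called by edgeR, and 1 had libraries that did not overlap. *Ace* amounted to 45.9%, 41.4% and 31.9% of the marker sum in GR+/+ lungs and to 20.1%, 31.0% and 18.4% in GRdim/dim lungs. On this scale the genotypes did not overlap, by the narrow margin between GR+/+ replicate 3 and GRdim/dim replicate 2. The difference of mean log2 levels between genotypes was -0.84 before and -0.80 after this scaling. In bulk tissue, fewer cells of a type and less RNA per cell cannot be told apart.

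*Mme* (ENSMUSG00000027820, chr3:63241537-63386030, plus strand, 23 exons in its longest coding transcript) encodes neprilysin, a membrane peptidase that cleaves bradykinin and angiotensin I. It measured 112, 122 and 151 CPM in GR+/+ lungs and 124, 112 and 67.0 CPM in GRdim/dim lungs. Only GRdim/dim replicate 3 lay below the GR+/+ range, and the groups overlapped. Means were 129 ± 20.3 and 100.9 ± 29.96 CPM (SD, n = 3 each), at a log2 fold change of -0.35 ± 0.23 (SE) and an adjusted p of 0.706 from edgeR. Without GRdim/dim replicate 3 the log2 fold change was -0.13.

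*Agtr1a* (ENSMUSG00000049115, chr13:30336441-30382867, plus strand) encodes the main type 1 receptor of mouse tissues. Its level was 22.6, 21.7 and 9.72 CPM in GR+/+ lungs and 18.2, 9.97 and 8.20 CPM in GRdim/dim lungs. GR+/+ replicates 1 and 2 and GRdim/dim replicate 1 were high, the other 3 libraries were low, and the groups overlapped. Means were 18.0 ± 7.19 and 12.1 ± 5.32 CPM (SD, n = 3 each), a log2 fold change of -0.57 ± 0.38 (SE) with an adjusted p of 0.708 from edgeR. The library of GR+/+ mice with the least *Agtr1a* was again replicate 3, which also had the least pericyte markers (153 CPM against 308 to 353 CPM elsewhere) and smooth muscle markers (256 CPM against 483 to 652 CPM). GRdim/dim replicate 3, with the least *Agtr1a* of all libraries, had the most smooth muscle markers, 652 CPM, and 308 CPM of pericyte markers. GRdim/dim replicate 2, also low in *Agtr1a*, had 570 CPM of smooth muscle and 310 CPM of pericyte markers. The part of these cells in the level of *Agtr1a*, whose product is known from vascular smooth muscle and pericytes, was not tested.

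*Agtr1b* (ENSMUSG00000054988, chr3:20314473-20367177, minus strand) and *Agtr2* (ENSMUSG00000068122, chrX:21484544-21489164, plus strand) were near or at the limit of detection. *Agtr1b* had 3, 2 and 12 counts in GR+/+ lungs and 8, 12 and 2 counts in GRdim/dim lungs, 39 in all (exact Poisson 95% interval 27.7 to 53.3, counting error only). The groups overlapped, and the gene was too low to be tested. Of windows of 31 bases in its transcripts, 5.01% also occurred in another gene, mostly in *Agtr1a*, so part of its few reads could have been assigned either way. *Agtr2* had 1 count, in GR+/+ replicate 3, and 0 counts in the other libraries, which allows a level of up to 0.125 to 0.194 CPM per library where the count was 0. Levels of *Agtr2* below this limit were not detectable at this depth. Per length, *Agtr1a* was 97.1, 139 and 19.7 times *Agtr1b* in GR+/+ lungs and 32.5, 15.4 and 48.9 times in GRdim/dim lungs, so type 1 receptor RNA in every lung came mainly from *Agtr1a*.

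The kinin receptor genes lie in tandem on chromosome 12, with *Bdkrb2* (ENSMUSG00000021070, chr12:105563226-105595237, plus strand, 3 exons) 7847 bases before *Bdkrb1* (ENSMUSG00000041347, chr12:105603085-105605428, plus strand), and no window of 31 bases is shared between them or with other genes. *Bdkrb2* measured 30.5, 19.3 and 21.1 CPM in GR+/+ lungs and 38.0, 51.0 and 39.3 CPM in GRdim/dim lungs. All GRdim/dim libraries lay above all GR+/+ libraries. Means were 23.7 ± 6.03 and 42.8 ± 7.16 CPM (SD, n = 3 each), 1.81-fold higher in GRdim/dim lungs, with a log2 fold change of 0.86 ± 0.22 (SE). *Bdkrb2* was not called by edgeR, at an adjusted p of 0.244, and was called by DESeq2, with a log2 fold change of 0.85 and an adjusted p of 0.0429. DESeq2 called 274 genes, 1.70% of the 16150 to which it gave an adjusted p.

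*Bdkrb1* measured 16.2, 6.18 and 5.78 CPM in GR+/+ lungs and 12.6, 5.48 and 21.6 CPM in GRdim/dim lungs. The libraries fell into a high and a low group that crossed the genotypes. Means were 9.38 ± 5.90 and 13.2 ± 8.09 CPM (SD, n = 3 each), at a log2 fold change of 0.50 ± 0.52 (SE) and an adjusted p of 0.835 from edgeR. Per length, *Bdkrb2* was 0.714, 1.18 and 1.38 times *Bdkrb1* in GR+/+ lungs and 1.14, 3.52 and 0.688 times in GRdim/dim lungs. Neither receptor was ahead in all libraries, and the ratio overlapped between the genotypes.

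**Figure D2:**
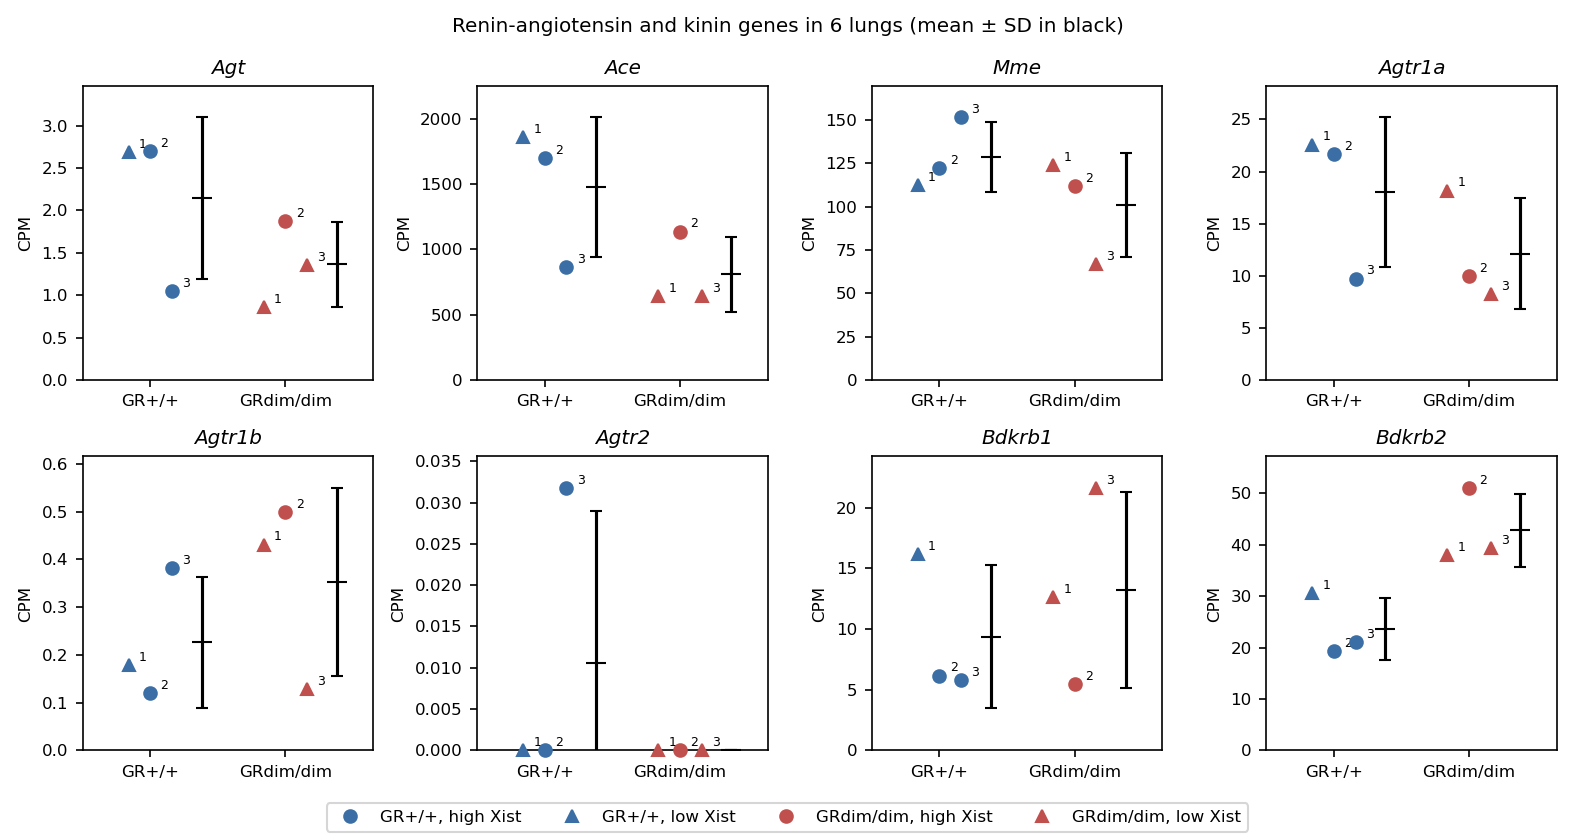
Level (CPM, linear axes from 0) of the 8 genes in each of 6 lungs, with replicate numbers beside the points, circles for libraries with much *Xist* and triangles for those with little, and the mean ± SD of 3 libraries in black. *Bdkrb2* is the gene without overlap, at 19.3 to 30.5 in GR+/+ and 38.0 to 51.0 in GRdim/dim lungs, and *Bdkrb1* is higher in all 3 libraries with little *Xist*.

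Of the 8 genes, 6 passed the filter on low counts and *Agtr1b* and *Agtr2* did not. edgeR called 0 of the 6, and its adjusted p-values ran from 0.244 to 0.835. At an unadjusted p under 0.05, *Ace* and *Bdkrb2* passed, 2 of 6, where 9.60% of all genes tested did. DESeq2 called 1, *Bdkrb2*. The libraries did not overlap between genotypes for 1 of the 6, where 14.8% of all genes tested had no overlap. By their means, 4 were lower and 2, the kinin receptors, higher in GRdim/dim lungs, with a median log2 fold change of -0.46 against 0.01 over all genes tested. As the genes were selected on this contrast, these shares are printed for scale. Among the 18 marker lists, the sums of some also separated the genotypes without overlap, given here for GR+/+ and GRdim/dim lungs respectively. B cell markers measured 82.3 to 168 and 198 to 708 CPM, T cell markers 20.9 to 39.0 and 42.0 to 56.0 CPM, NK cell markers 5.86 to 17.4 and 21.3 to 32.1 CPM, and alveolar macrophage markers 387 to 404 and 237 to 280 CPM. The sums of the other lists overlapped. Single markers did not overlap for 3 of 6 B cell and 3 of 7 T cell genes. For NK cells and alveolar macrophages it was 2 of 5 and 1 of 6 genes. In these lists edgeR called no gene, and 1 alveolar macrophage marker was higher in GRdim/dim lungs. The part of these cells in the levels of the 8 genes was not tested. For any one gene, an exact permutation test over 3 and 3 lungs has 0.1 as its smallest p. The p-values of edgeR and DESeq2 set the difference between genotypes against the spread between these mice, estimated with information from other genes. The main fit had no term for sex, which was not balanced between the genotypes.

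The other genes of the system were taken from 6 lists with 35 genes, written with earlier results of these data known but not by their own values. Of these, 27 were tested and 8 were too low. edgeR called 0 of 27, with adjusted p-values from 0.360 to 0.978, and DESeq2 called 0. At an unadjusted p under 0.05 edgeR gave 4, with *Aplnr*, *Apln* and *Klk1* higher and *Cpn1* lower in GRdim/dim lungs, where the share over all genes tested was 9.60%. Of the 27 tested, libraries did not overlap between genotypes for 4, namely *Aplnr*, *Klk1*, *Cpn1* and *Agtrap*, where the share over all genes was 14.8%. The median log2 fold change of the 27 was 0.08, with 16 higher and 11 lower.

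Among the enzymes that form or convert angiotensins, renin itself was almost absent, with 3 counts of *Ren1* over 6 libraries (exact Poisson 95% interval 0.619 to 8.77). These counts lay in GR+/+ replicates 1 and 2, and replicate 2 also had the kidney markers named above, while replicate 1 had 0 CPM of them. Renin is known to reach the lung from the kidney through the blood. *Cma1*, a mast cell chymase listed here among the angiotensin-forming enzymes, was named after its values were seen. It measured 1.02, 0.779 and 0.731 CPM in GR+/+ lungs and 1.67, 2.28 and 0.969 CPM in GRdim/dim lungs. The groups overlapped, at a log2 fold change of 0.98 ± 0.45 (SE) and an adjusted p of 0.537 from edgeR. Summed mast cell markers overlapped as well, at 114 to 243 CPM in GR+/+ and 170 to 298 CPM in GRdim/dim lungs. The list held 9 other converting or degrading peptidases, which had log2 fold changes between -0.19 and 0.18, and none passed the test.

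*Mas1*, the receptor of angiotensin-(1-7), gave 44 counts in all and was not tested. *Agtrap*, whose product binds the type 1 receptor and promotes its internalization, measured 53.1, 67.6 and 55.6 CPM in GR+/+ lungs and 44.4, 46.5 and 52.6 CPM in GRdim/dim lungs. The groups did not overlap, by a narrow margin, and the log2 fold change of -0.30 ± 0.17 (SE) had an adjusted p of 0.644 from edgeR. *Aplnr*, the apelin receptor and the closest relative of the type 1 receptor in this list, measured 59.5, 37.5 and 22.6 CPM in GR+/+ lungs and 79.9, 68.7 and 73.8 CPM in GRdim/dim lungs. All GRdim/dim libraries were above all GR+/+ libraries, at a log2 fold change of 0.90 ± 0.29 (SE) and an adjusted p of 0.360 from edgeR. Its level in GRdim/dim lungs was even, while GR+/+ replicate 3, with the lowest endothelial marker sum (2701 CPM), had the lowest level. GR+/+ replicate 2 had the highest marker sum (4099 CPM) and the next lowest level. The sums in GRdim/dim lungs, 3207 to 3661 CPM, lay below those of GR+/+ replicates 1 and 2. The part of endothelial cells in the level of *Aplnr* was not tested. Its ligand gene *Apln*, named here after its values were seen because it was among the genes with an unadjusted p under 0.05, measured 59.5, 37.6 and 31.5 CPM in GR+/+ lungs and 72.8, 53.2 and 109 CPM in GRdim/dim lungs. These groups overlapped, at a log2 fold change of 0.87 ± 0.30 (SE) and an adjusted p of 0.386 from edgeR.

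None of the genes that make or remove kinins was called. *Kng1*, a kininogen gene expressed mainly in liver, had 65 counts, all in GR+/+ replicate 3, the library with liver markers, and *Kng2* had 72 counts. *Kng2* measured 0.896, 1.68 and 0.445 CPM in GR+/+ lungs and 0.270, 0.332 and 0.129 CPM in GRdim/dim lungs, without overlap, but was too low to be tested with edgeR and was given no adjusted p by DESeq2. *Klkb1*, plasma prekallikrein, measured 1.25, 1.08 and 2.13 CPM in GR+/+ lungs and 0.809, 1.87 and 1.55 CPM in GRdim/dim lungs, which overlapped. *Klk1*, tissue kallikrein, which releases kinins from kininogen, measured 0.837, 1.26 and 0.635 CPM in GR+/+ lungs and 1.62, 2.45 and 1.49 CPM in GRdim/dim lungs. Its groups did not overlap, at a log2 fold change of 1.05 ± 0.44 (SE) and an adjusted p of 0.487 from edgeR. *Cpn1*, the catalytic subunit of the carboxypeptidase that trims the last arginine of kinins, went the other way, with 6.27, 6.12 and 8.39 CPM in GR+/+ and 3.45, 4.69 and 4.65 CPM in GRdim/dim lungs, without overlap. Its log2 fold change was -0.70 ± 0.29 (SE), with an adjusted p of 0.471 from edgeR. GR+/+ replicate 3, the library with liver markers, had the most *Cpn1*, and without that library the log2 fold change was -0.54 in edgeR. Of the 8 kinin-degrading enzymes listed beside *Ace* and *Mme*, 5 were lower and 3 higher, and none was called. The highest of them, *Xpnpep2*, an X-linked aminopeptidase named after its values were seen, was at 0.67 ± 0.33 (SE), with an adjusted p of 0.569 from edgeR and groups that overlapped.

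**Figure D3:**
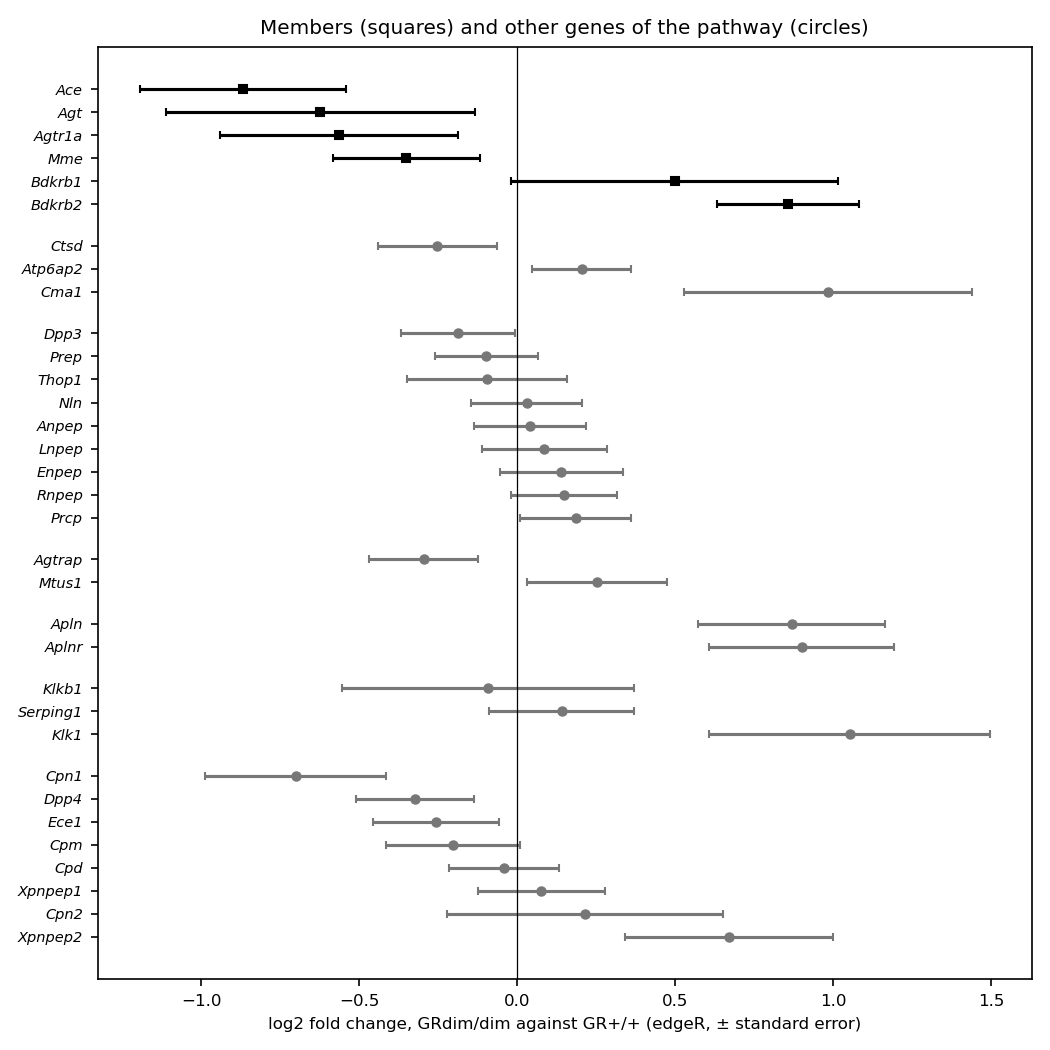
Log2 fold change of GRdim/dim against GR+/+ lungs (edgeR, bars are ± 1 SE) for the 6 members tested (black squares) and the 27 other genes of the system tested (grey circles), in the order of the lists. Values run from -0.87 for *Ace* to 1.05 for *Klk1*, and none of these genes passed the test at an adjusted p under 0.05.

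The sexes were unequal between the genotypes, so the genes were also read by *Xist* class. *Bdkrb1* measured 12.6 to 21.6 CPM (mean 16.8 ± 4.54) in the 3 libraries with little *Xist* and 5.48 to 6.18 CPM (mean 5.81 ± 0.347) in the 3 with much. The classes did not overlap, as for 8.86% of all genes tested. In an edgeR fit with genotype as a further term, the log2 fold change of the class with much *Xist* against that with little was -1.54 ± 0.29 (SE), with an adjusted p of 0.338. That fit called 5 of 16568 genes, or 0.0302%, and *Bdkrb1* was not among them. The other tested members overlapped between the classes. Among the other genes of the system, *Apln*, on the X chromosome, measured 59.5 to 109 CPM with little *Xist* and 31.5 to 53.2 CPM with much. Its classes did not overlap, at a log2 fold change of -0.78 ± 0.21 (SE) and an adjusted p of 0.793 in that fit. *Xpnpep1* and *Dpp4*, not on the X chromosome, and the untested *Mas1* did not overlap between the classes either. *Xpnpep2*, also on the X chromosome, overlapped, at a log2 fold change of 0.90 ± 0.22 (SE) and an adjusted p of 0.700 in that fit.

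Within the *Xist* classes, each genotype had 1 or 2 libraries, so these values have no test. *Ace* differed between GRdim/dim and GR+/+ lungs by -1.53 on the log2 scale in the class with little *Xist* and by -0.09 in the class with much. *Bdkrb2* was higher in GRdim/dim lungs in both, by 0.34 with little and 1.34 with much *Xist*. *Bdkrb1* differed by 0.03 and -0.12, from single libraries of 1 genotype in each class. *Agtr1a* was lower in both, at -0.89 and -0.54, and so was *Mme*, at -0.30 and -0.28, while *Agt* was at -1.31 and 0.15. In the class with much *Xist*, the GR+/+ libraries themselves differed, at 1697 CPM of *Ace* in replicate 2 and 861 CPM in replicate 3.

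**Figure D4:**
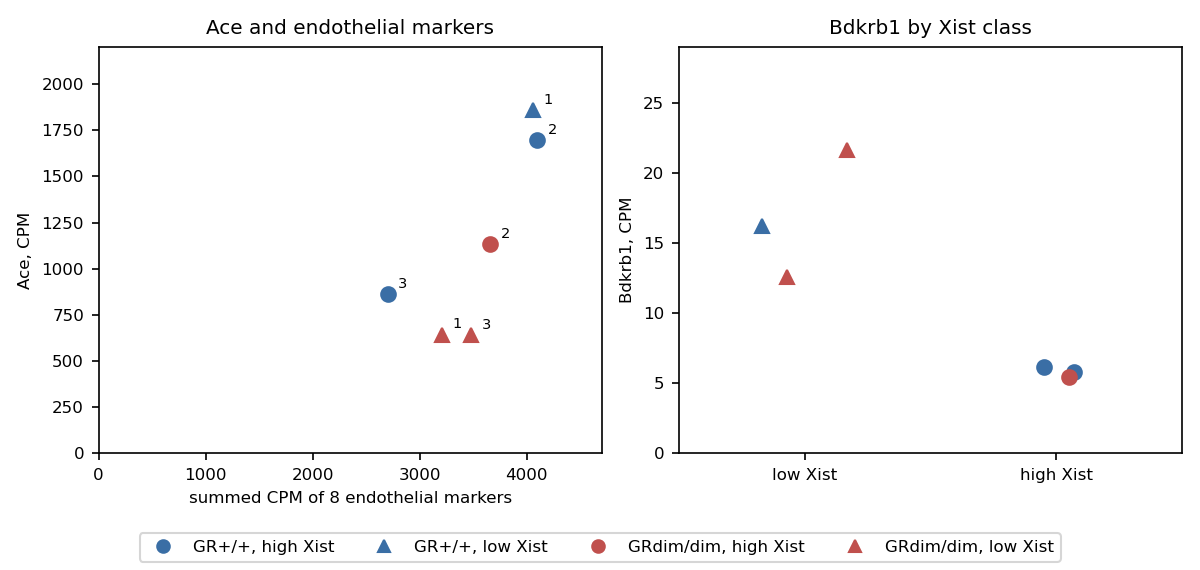
Left, *Ace* (CPM) against the summed CPM of 8 endothelial markers in each library, and right, *Bdkrb1* (CPM) by *Xist* class, with colour for genotype and shape for the class. GR+/+ replicate 3 has the lowest marker sum, 2701 CPM, and *Bdkrb1* at 12.6 to 21.6 CPM with little *Xist* lies above its 5.48 to 6.18 CPM with much.

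Among the 6 tested genes, one pair stood out in how the levels varied over the 6 libraries. *Ace* and *Agt* had a Pearson correlation of log2 CPM of 0.92, given as a description over 6 libraries that also differ in genotype, depth and marker sums. The other pairs among the 6 tested genes lay between -0.71, for *Mme* and *Bdkrb1*, and 0.63, for *Ace* and *Agtr1a*. The genes of the whole table most like *Ace* were *Wiz*, at 0.988, and *Arhgef15*, a gene of endothelial cells, at 0.987, and 41 of 15348 genes exceeded 0.95. For *Bdkrb2* they were *Adamts1*, a secreted protease, at 0.990 and *Fam122a* at 0.987, with 36 genes over 0.95. With 6 libraries, each of the 6 genes had between 29 and 96 such partners, so a high value here does not single out a gene. *Agtr1a* was most like *Tmem200a* at 0.993 and *Arhgap42* at 0.989, and *Bdkrb1* was most like *Ppp2r1a* at 0.998 and *Gm29650* at 0.988. *Mme* was most like *Gm38155* at 0.998 and *Birc6* at 0.996, and *Agt* was most like *Mtss1l* at 0.997 and *Prr12* at 0.989.

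Single libraries decided several of these values. The log2 fold change of *Ace* was -1.14 without GR+/+ replicate 3 and -1.19 without GRdim/dim replicate 2, and between -0.66 and -0.75 with any other library left out. DESeq2 called *Ace* in these 2 fits, at adjusted p-values of 0.00605 and 0.0105, and in none of the other 4. *Bdkrb2* lay between 0.71 and 1.08 in edgeR with any one library left out, and DESeq2 called it in 2 of the 6 such fits, without GR+/+ replicate 1 (adjusted p = 0.0135) or GRdim/dim replicate 3 (adjusted p = 0.0429). Without GR+/+ replicate 2 or 3 or GRdim/dim replicate 1 or 2, its adjusted p from DESeq2 was 0.341, 0.216, 0.0677 and 0.308. *Bdkrb1* ranged from -0.049 without GRdim/dim replicate 3 to 1.15 without GR+/+ replicate 1. *Agtr1a* ranged from -0.97 without GRdim/dim replicate 1 to -0.35 without GRdim/dim replicate 3, and *Agt* from -0.97 without GR+/+ replicate 3 to -0.37 without GRdim/dim replicate 1. Over 18 alternatives *Agt*, *Ace*, *Mme*, *Agtr1a* and *Bdkrb2* kept their direction in each, and *Bdkrb1* turned in 3. These alternatives are refits of the same libraries.

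**Figure D5:**
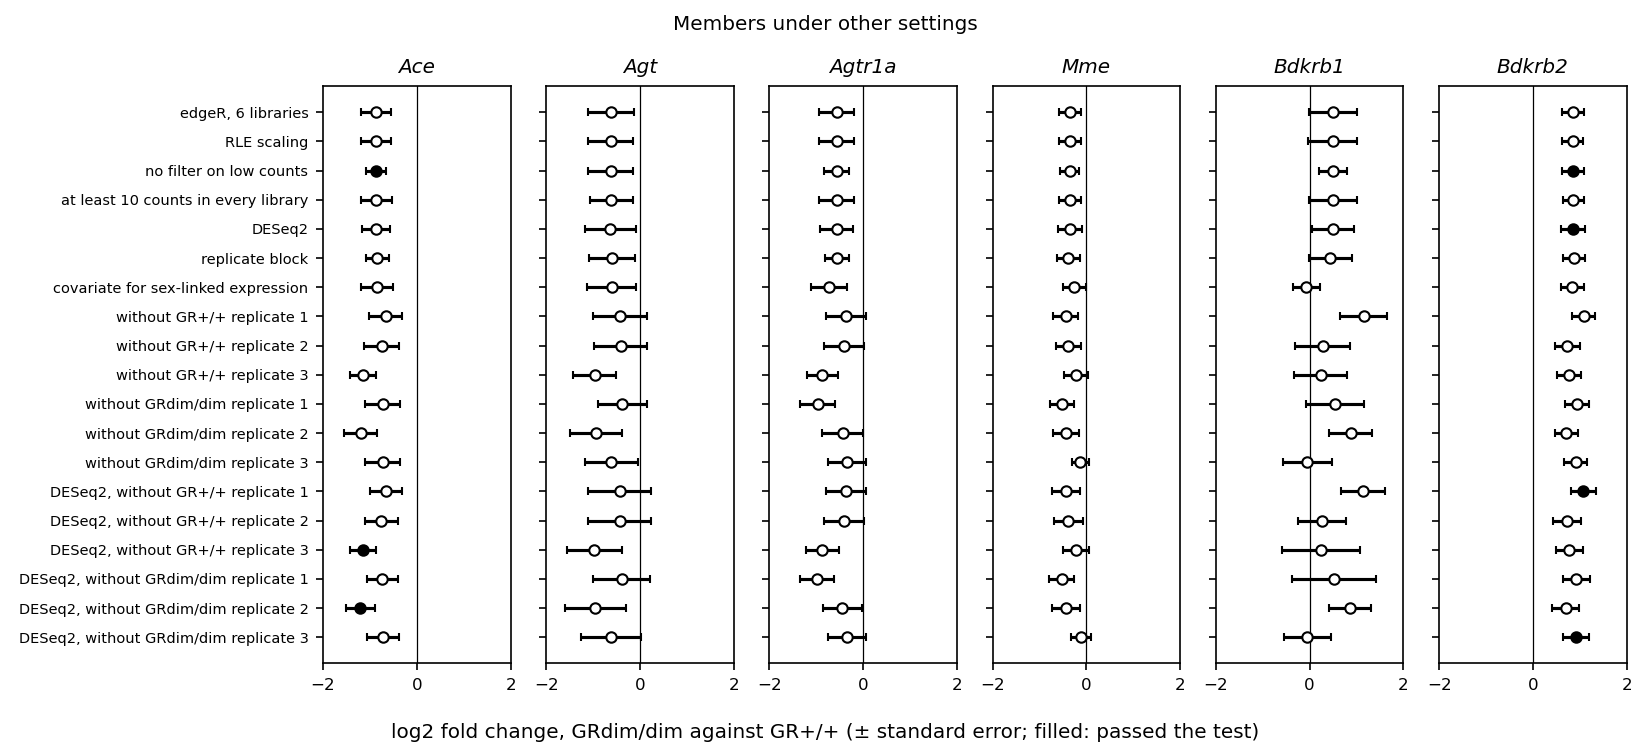
Log2 fold change of GRdim/dim against GR+/+ lungs (± 1 SE) of the 6 tested members in the edgeR fit of all 6 libraries and under the other settings, including each library left out in turn, with filled circles where the test was passed. *Ace* lies at -1.20 to -0.66 and *Bdkrb2* at 0.70 to 1.08, and the sign of *Bdkrb1* depends on the setting.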

How the data were processed

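RNA from 6 lungs was sequenced as poly(A)-captured libraries. The authors deposited raw read counts per Ensembl gene, whole numbers without normalization or pooling, and their fold changes and p-values, which were not used. Per the submitters' processing notes the build was mm10 and DESeq2 was used. The aligner, counter and use of strand are not given in the sources used here. Coordinates match GENCODE M21 of GRCm38 for 53499 of 54532 genes, all 8 members included. Genotype and replicate number came from the sample labels. Replicates of a genotype differed by 19.2 to 62.9 chi-square units per degree of freedom and were used as separate samples.

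edgeR 4.0.16 in R 4.3.3 (TMM, filterByExpr, robust quasi-likelihood test) was run on all genes, with Benjamini-Hochberg adjustment over 16568, and DESeq2 1.42.0 as an alternative. The procedure was tested on simulated data. CPM are on TMM-scaled totals, and log2 CPM have a prior count of 2. The 6 pathway lists and 18 marker lists and the 8 members were chosen with earlier results of these data known. Named were all members, pathway genes with a mean of at least 1 CPM and no overlap between genotypes, 5 direct partners and the 2 genes most like each member. Alternatives were RLE scaling, no filter, at least 10 counts in every library, DESeq2, a replicate block, a covariate for *Xist* against Y-linked genes, no fold threshold, the longest transcript as length and each library left out. DESeq2 with each library left out, *Ace* relative to endothelial markers and the *Xist* class fit were added after seeing the data. A gene of the pathway lists is not reported here.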

Additional observations from a re-analysis of the deposited data

How the results depend on the processing

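The counts of genes called depended on the tool, the filter and single libraries. Over all genes, edgeR called 28 of 16568, and 522 of 31368 without a filter on low counts. It called 12, 4 and 17 without GR+/+ replicates 1, 2 and 3, and 22, 20 and 14 without GRdim/dim replicates 1, 2 and 3. DESeq2 called 274 of 16150. With the same libraries left out it called 182, 192, 175, 253, 241 and 384 of the 15783 to 18834 genes given an adjusted p. Of the members, edgeR called 0 of 6, and 2 of 8 without the filter (*Ace* at an adjusted p of 0.00804 and *Bdkrb2* at 0.0157). DESeq2 called 1 of 6, and 0 to 1 with one library left out. Of the other genes of the system, edgeR and DESeq2 each called 0 of 27. Without the filter edgeR called 3 of 34, *Aplnr*, *Apln* and *Kng1*, the last with all its counts in 1 library. DESeq2 with one library left out called 0 to 2 (*Aplnr* and *Apln*). The cause was not tested. The direction turned for *Bdkrb1*, to -0.071 with the covariate for sex-linked expression, -0.049 in edgeR and -0.046 in DESeq2 without GRdim/dim replicate 3 (range in edgeR with one library left out -0.049 to 1.15). It turned for *Klkb1*, to 0.083 with the covariate, 0.28 without GR+/+ replicate 3 in both tools, and 0.19 in edgeR and 0.18 in DESeq2 without GRdim/dim replicate 1 (range -0.36 to 0.28).

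With the replicate number as a block, edgeR called 34 genes, 0 of them members, and gave log2 fold changes of 0.87 for *Bdkrb2* and -0.84 for *Ace*. Same-numbered libraries had correlations of their deviations from the group means of 0.266, 0.0418 and -0.0471. Replicates 1 of both genotypes had little *Xist* and replicates 2 of both had much. With 3 mice a group, these values cannot decide whether same-numbered libraries share more than a number. The spread between 3 mice a group limits every fold change here, and few counts limit *Agt*, *Agtr1b* and *Agtr2*. Few counts also limit *Klk1*, *Cma1* and *Klkb1*, whose means over 6 libraries, 1.38, 1.24 and 1.45 CPM, lay below the 1.75 CPM of *Agt*.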
